A study of Mus musculus with 10 samples.

Results

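The laminins, integrins and adhesive glycoproteins of the mouse dorsal root ganglion (DRG) were followed here as 1 family of 45 protein-coding genes, of 21669 protein-coding genes among 54309 genes quantified. The family was chosen by gene symbol. It holds the 11 laminin chains (Lama, Lamb and Lamc), 18 integrin alpha and 8 integrin beta subunits (Itga and Itgb), the nidogens Nid1 and Nid2, and the glycoproteins Fn1, Tnc, Vtn, Spp1, Thbs1 and Thbs2. Of these, 44 passed the filter on low counts and were tested. The remaining member, Itgad, an alpha subunit of leukocytes, had 1 to 6.99 estimated counts per library, at or near the floor of 3 counts, and was not tested. The libraries came from female and male C57BL/6 mice aged 6 to 8 weeks, whose left sciatic nerve was either cut across its whole width at mid-thigh (axotomy) or exposed and left intact (sham) under isoflurane. The L4 and L5 DRG on the operated side were taken 24 h later, and each library pooled the ganglia of 2 mice. Sham libraries numbered 2 a sex and axotomy libraries 3 a sex, 10 in all. The mice were assigned to the operations at random, and the sham mice also had the incision and the exposed nerve. The pools hide the spread between single mice, and an L4 or L5 ganglion also holds neurons whose axons do not run in the sciatic nerve.

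Laminins are trimers of an alpha, a beta and a gamma chain that form the scaffold of basement membranes, including those around Schwann cells, satellite glia and blood vessels, and nidogens link them to collagen IV. Integrins are receptors of 1 alpha and 1 beta subunit. The pairing decides the ligand: alpha3, alpha6 and alpha7 with beta1, and alpha6 with beta4, bind laminins, alpha5 and alphav bind the RGD tripeptide of fibronectin and vitronectin, and the beta2 integrins serve leukocytes. In peripheral nerve, integrins on the growing axon tip pull against laminin and fibronectin during regrowth.

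Depth was 55258476 to 90111671 estimated counts per library, so 3 counts correspond to 0.0333 to 0.0543 CPM. Levels between libraries are given as normalized CPM (counts relative to library size, corrected for effective transcript length), and levels between genes as TPM, which are per length. The sensory neuron markers were present in every library at a sum of 9999 to 14059 CPM over 12 genes. In males, 10 of 10 fibroblast, 12 of 12 macrophage, 6 of 8 meningeal and 8 of 8 myelinating Schwann cell markers rose after axotomy, and 7 of 12 sensory neuron markers fell. In females, 1 macrophage marker rose, and 2 fibroblast, 1 macrophage and 5 sensory neuron markers fell. Of all genes, 21.8% rose and 20.1% fell in males, and 10.4% rose and 9.74% fell in females. The summed fibroblast markers were 718 to 971 CPM in the 4 sham, 746 to 868 CPM in the 3 female axotomy and 1024 to 1945 CPM in the 3 male axotomy libraries, with male axotomy 2 the lowest of its group. Female axotomy 2 stood apart in 8 skeletal muscle genes, at a sum of 119.6 CPM against 3.32 to 29.9 CPM elsewhere. In whole ganglia, fewer cells of a type and less RNA per cell cannot be told apart.

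A small set of the family moved the same way in both sexes. Itga7, Itgb1 and Lama5 rose and Lamc3, Itga11 and Itga4 fell in females and in males, where a call is an adjusted p (padj) under 0.1 by edgeR's quasi-likelihood test with Benjamini-Hochberg adjustment over 20836 genes. Beyond these, males had more and mostly higher members. In females 3 of 44 members rose and 10 fell, where 10.4% of all genes rose and 9.74% fell. In males 25 rose and 6 fell, against 21.8% and 20.1% of all genes. Averaged over the sexes, 19 rose and 8 fell, against 23.9% and 22.6%. The median log2 fold change of the 44 members was -0.044 in females, 0.37 in males and 0.17 averaged, while that of all genes was 0.0004, 0.027 and 0.019.

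Of the members, 2 changed in opposite directions with both calls passing, Itgav and Nid1, which fell in females and rose in males. A further 5 were called in females alone, 23 in males alone and 8 in neither sex. Males had more calls over all genes too, 21.8% up and 20.1% down against 10.4% and 9.74% in females. The overlap between the sexes was not counted over all genes, so these counts are not read as a trait of the family. A call in 1 sex is not a difference between the sexes, and that difference passed for 0 of 44 members in edgeR's test, as for 0.0192% of all genes, with 21 of 44 at an unadjusted p under 0.05 and 10 called by DESeq2. The counts of 21 and 10 have no share of all genes beside them here and are not read as a result about the family. The counts lean on single sham libraries. Without female sham 2 the females had 2 called members, Itga7 and Itgb1, with the 11 lost calls at log2 fold changes of -0.96 to 0.45. They had 8 without female sham 1 and 7 without female axotomy 1. Without either male sham library the males had 16, and the averaged comparison had 15 without male sham 2, 16 without female sham 2 and 17 without male sham 1. When the mean level of fibroblast and meningeal markers was added as a covariate, 1 of the 31 male calls, that of Itga7, 6 of the 27 averaged calls and 13 of the 13 female calls held, and 28 of the 31 kept their sign in males. That mean was 4.16 and 4.21 log2 CPM in the female shams and 4.13 to 4.27 in injured females. The covariate could therefore hardly move the female calls. In males it was 3.81 and 3.93 in sham and 4.31 to 5.18 after axotomy, so it overlapped with the operation. Some lost calls had a log2 fold change near that without the covariate, such as Itgb1 at 0.56 (padj = 0.11) and Lamb1 at 0.34 (padj = 0.248), so a lost call does not show that the change went with the markers. The calls of Itga7 and Itgb1 held in both sexes with every library left out in turn, whereas Lama5 lost its female call in 6 and its male call in 7 of 10 leave-outs, Itga11 in 2 and 3, Lamc3 in 1 and 2 and Itga4 in 1 and 1. Of the 2 members with opposite calls, Itgav lost its female call in 4 leave-outs and kept its male call in all. Nid1 lost its female call in 1 and its male call in 3. In males 12 of the 31 calls held throughout. Averaged, 11 of the 27 calls held, those of Itga7, Itgb1, Lama5, Lama3, Fn1, Vtn, Spp1, Itgam, Lamc3, Itga11 and Itga4.

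**Figure D1:**
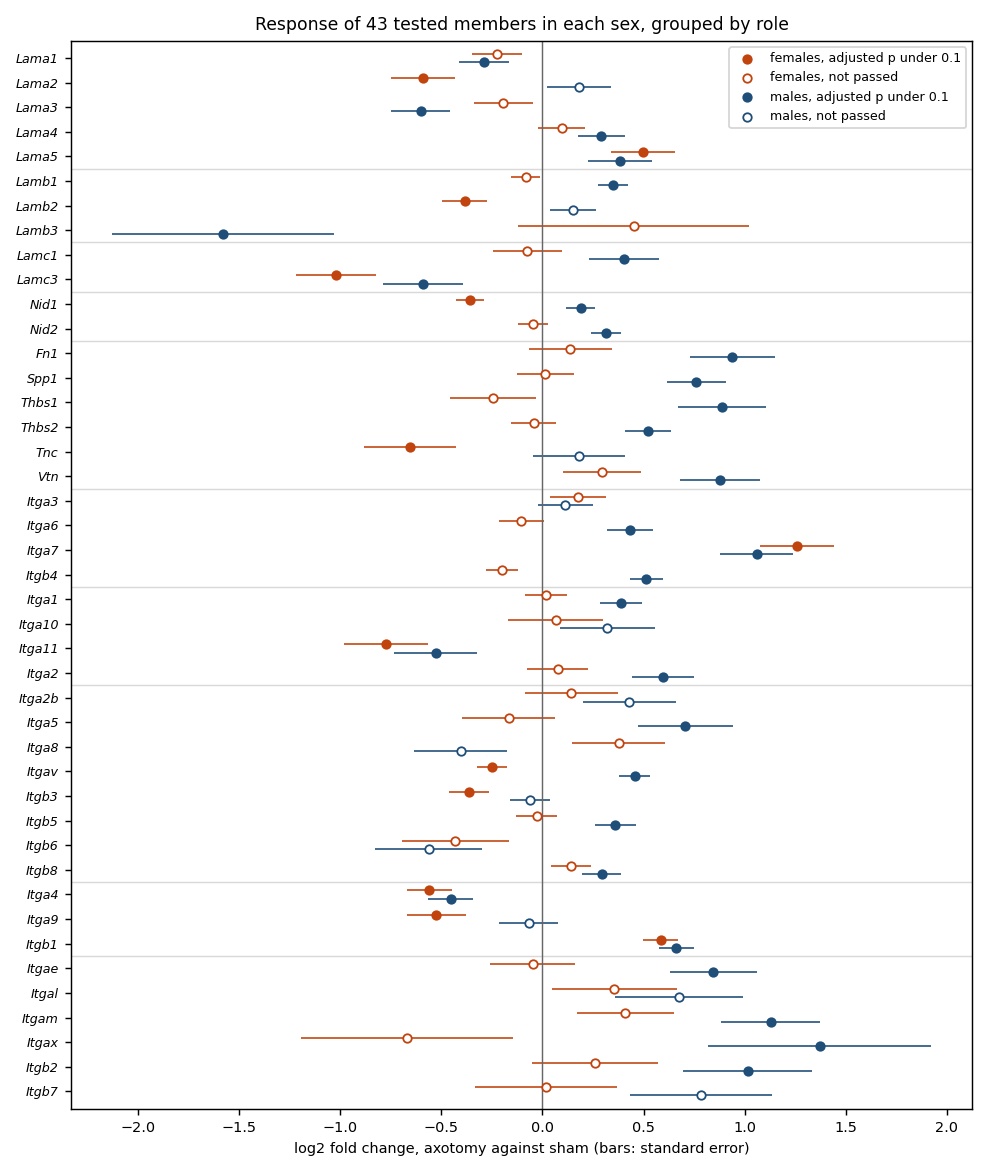
The log2 fold change of axotomy against sham (x axis) is drawn for 43 of the 44 tested members, females in orange and males in blue, with the standard error as bars and filled points for an adjusted p under 0.1. Itga7 and Itgb1 lie to the right in both sexes, Lamc3, Itga11 and Itga4 to the left, and most glycoproteins and leukocyte subunits have a filled point to the right in males only, although no member passed the test of the difference between the sexes.

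By TPM, 3 members stood far above the rest. Averaged over the 10 libraries, Spp1 (osteopontin) was at 262 TPM, Itgb1 at 244 TPM and Itga7 at 228 TPM, and the next, Itga6, at 58.7 TPM. Of the Itga6 TPM, 51.4% to 62.1% was the non-coding transcript Itga6-203, so its place above Itgb8 (38.3 TPM), Lamb1 (36.8 TPM) and Itga3 (34.0 TPM) rests on counting that transcript. The order of the first 3 is not fixed beyond their spread, since their ranges over libraries overlap, from 199 to 340 TPM for Spp1, 191 to 291 TPM for Itgb1 and 136 to 330 TPM for Itga7. Within the families, Itga7 held 47.5% to 52.6% of the alpha subunit TPM in sham and 56.7% to 71.6% in axotomy libraries, and Itgb1 held 70.0% to 71.9% and 74.0% to 80.0% of the beta subunit TPM. Lamb1 and Lamc1 were the leading beta and gamma chains, at 56.6% to 64.1% and 82.8% to 91.6% of their chain class. Lama4, a chain of vessel and nerve basement membranes, averaged 47.6% of the alpha chain TPM and Lama2, the Schwann cell chain, 38.7%. Lama2 was the higher in female sham 2, at 46.1% against 41.2%, the shares nearly met in male axotomy 3, at 45.0% and 45.3%, and up to 40.3% of the Lama4 TPM was a retained-intron fragment of 511 bases. At the low end, Itgae, Itga8, Itgax and Itgal averaged under 0.5 TPM.

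**Figure D2:**
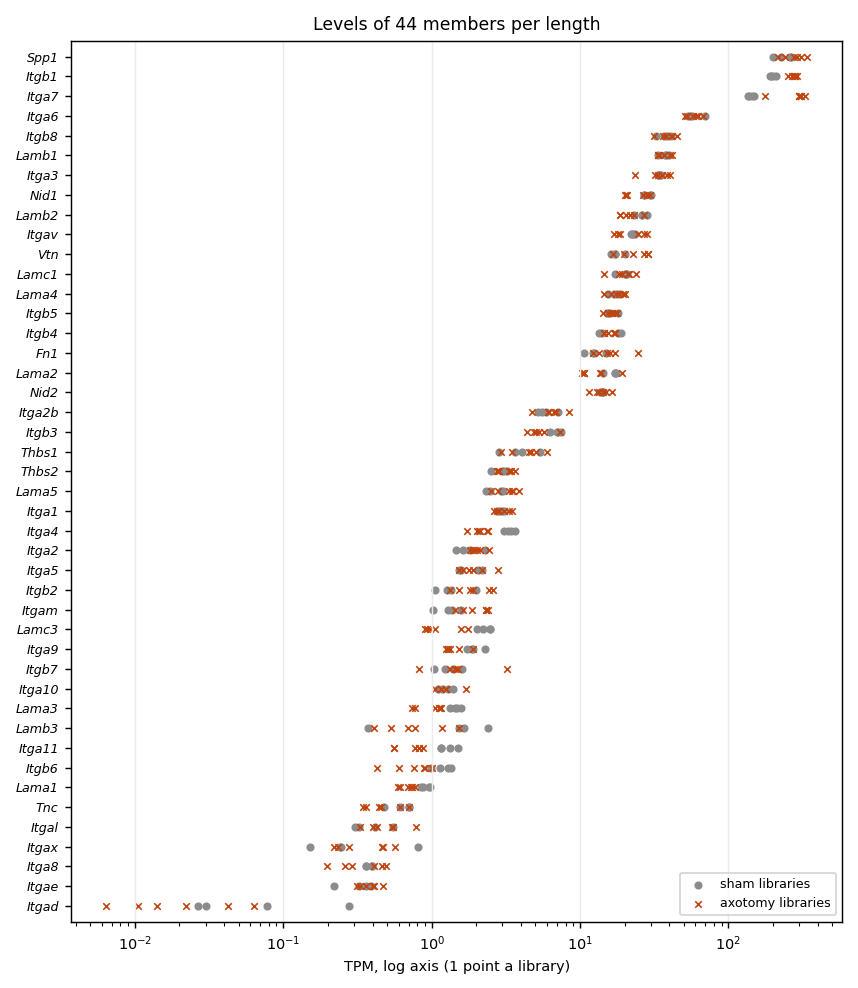
TPM of 44 of the 45 members (log axis), 1 point a library, grey circles for the 4 sham and orange crosses for the 6 axotomy libraries, ordered by the mean. Spp1, Itgb1 and Itga7 lie near or above 136 TPM in every library, and Itgad lies below 0.3 TPM.

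Among the laminin-binding subunits, the leading change was that of Itga7, which encodes the alpha subunit of a laminin receptor known from muscle and, in mice, from the regrowth of cut motor axons. Itga7 read 307 and 332 CPM in the female shams, 301 and 324 in the male shams, 835, 754 and 705 in injured females and 786, 701 and 466 in injured males. Every axotomy library lay above every sham library, and male axotomy 3 was the lowest of the injured. On the log2 scale the change was 1.26 ± 0.18 (SE, padj = 0.00268) in females, with 1.06 ± 0.18 (SE, padj = 0.00231) for males. In Itga7, female axotomy 2, with the highest skeletal muscle gene sum (119.6 CPM), lay between female axotomy 1 and 3, at sums of 7.47 and 6.21 CPM. Muscle sums elsewhere reached 29.9 CPM, in male sham 1. The part of muscle RNA in the Itga7 level was not tested. Itgb1, the common beta subunit that pairs with alpha7, read 373 and 385 CPM in the female shams, 348 and 359.8 in the male shams, 607, 559 and 539 in injured females and 606, 522 and 552 in injured males. Again no axotomy library overlapped a sham library, and the 3 values of each injured group lay close together. Its log2 fold change was 0.58 ± 0.086 (SE, padj = 0.00268) in females, with 0.66 ± 0.086 (SE, padj = 0.00085) for males. Itga7 and Itgb1 were the 2 members whose 6 axotomy libraries all lay above the 4 sham libraries, as in 13.5% of all genes, and the 2 whose female calls held with each library left out. Within a single sex, a lack of overlap was common. All female axotomy libraries lay above the female shams in 26.2% of all genes and below them in 25.9%. In males these shares were 29.3% and 28.2%. Of the 44 members, 6 lay above and 14 below in females, and 28 above and 7 below in males. Separation within a sex is therefore not read as a result about a single member.

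Itgb4, which pairs with alpha6 in a laminin receptor of Schwann cells and perineurium, read 67.2 and 63.4 CPM in the female shams, 48.95 and 47.6 in the male shams, 61.7, 55.5 and 53.2 in injured females and 71.1, 64.2 and 71.4 in injured males. The female injured libraries lay below the female shams and the male injured libraries above the male shams. Its log2 fold change was -0.20 (padj = 0.123) in females and, for males, 0.51 (padj = 0.00172), so the female decrease did not pass. The averaged change was 0.16 (padj = 0.05099). In sham, males minus females was -0.44 on the log2 scale and did not pass (padj = 0.672). Itga6, the partner of both beta1 and beta4, spanned 83.95 to 127 CPM, with log2 fold changes of -0.10 (padj = 0.583) in females and, for males, 0.43 (padj = 0.0148). Counted over protein-coding transcripts alone, the male change of Itga6 was 0.26 (padj = 0.0695). Itga3, a laminin receptor subunit of epithelia, spanned 79.2 to 120.3 CPM and passed in neither sex.

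The promoters of 28 of the 45 members are in the RefSeq table of build GRCm38.p6, with 33 start sites, and neither Itga7 nor Lamc3 is among them. Of the members called the same way in both sexes, the 250 bases upstream of the annotated start are shown for Itgb1 and Lama5, which rose, and for Itga11 and Itga4, which fell, so that the sequences of members moving in opposite directions can be read side by side. Itgb1 lies at chr8:128685404-128685653, Itga11 at chr9:62677605-62677854 and Itga4 at chr2:79255176-79255425, all on the plus strand, and Lama5 at chr2:180225860-180226109 on the minus strand, and capitals mark a GC box (GGGCGG, either strand).
Itgb1: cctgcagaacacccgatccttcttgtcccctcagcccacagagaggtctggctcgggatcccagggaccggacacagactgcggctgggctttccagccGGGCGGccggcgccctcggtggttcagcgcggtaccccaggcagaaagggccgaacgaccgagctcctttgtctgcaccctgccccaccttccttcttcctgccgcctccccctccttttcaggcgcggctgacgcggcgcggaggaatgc
Lama5: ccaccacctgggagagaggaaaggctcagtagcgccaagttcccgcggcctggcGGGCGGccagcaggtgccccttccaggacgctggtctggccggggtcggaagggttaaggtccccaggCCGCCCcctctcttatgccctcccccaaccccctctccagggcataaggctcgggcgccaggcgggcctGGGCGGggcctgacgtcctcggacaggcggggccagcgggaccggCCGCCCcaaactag
Itga11: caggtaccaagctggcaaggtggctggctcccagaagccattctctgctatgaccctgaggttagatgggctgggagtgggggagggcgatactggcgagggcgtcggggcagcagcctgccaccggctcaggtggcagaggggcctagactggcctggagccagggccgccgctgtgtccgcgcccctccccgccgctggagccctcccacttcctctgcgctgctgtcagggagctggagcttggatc
Itga4: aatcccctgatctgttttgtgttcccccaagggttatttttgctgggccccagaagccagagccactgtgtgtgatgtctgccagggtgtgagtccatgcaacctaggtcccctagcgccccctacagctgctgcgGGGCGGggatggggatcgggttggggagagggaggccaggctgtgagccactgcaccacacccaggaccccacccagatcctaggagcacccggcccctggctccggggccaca
The GC box lay 151 bases before the start in Itgb1 and 114 bases before it in Itga4. Lama5 held 4 between 196 and 14 bases before its start, and none was in the Itga11 window. It was in 12 of the 33 member promoters and in 32.7% of 32851 mouse promoters of the same length. The motif of AP-1, the Jun and Fos dimer (TGANTCA), was in none of the 4 windows, in 1 of the 33, that of Itgax, and in 6.75% of all promoters. The cAMP response element (TGACGTCA) was in 0 of the 33 and in 1.55% of all. These letters say nothing of what binds there.

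**Figure D3:**
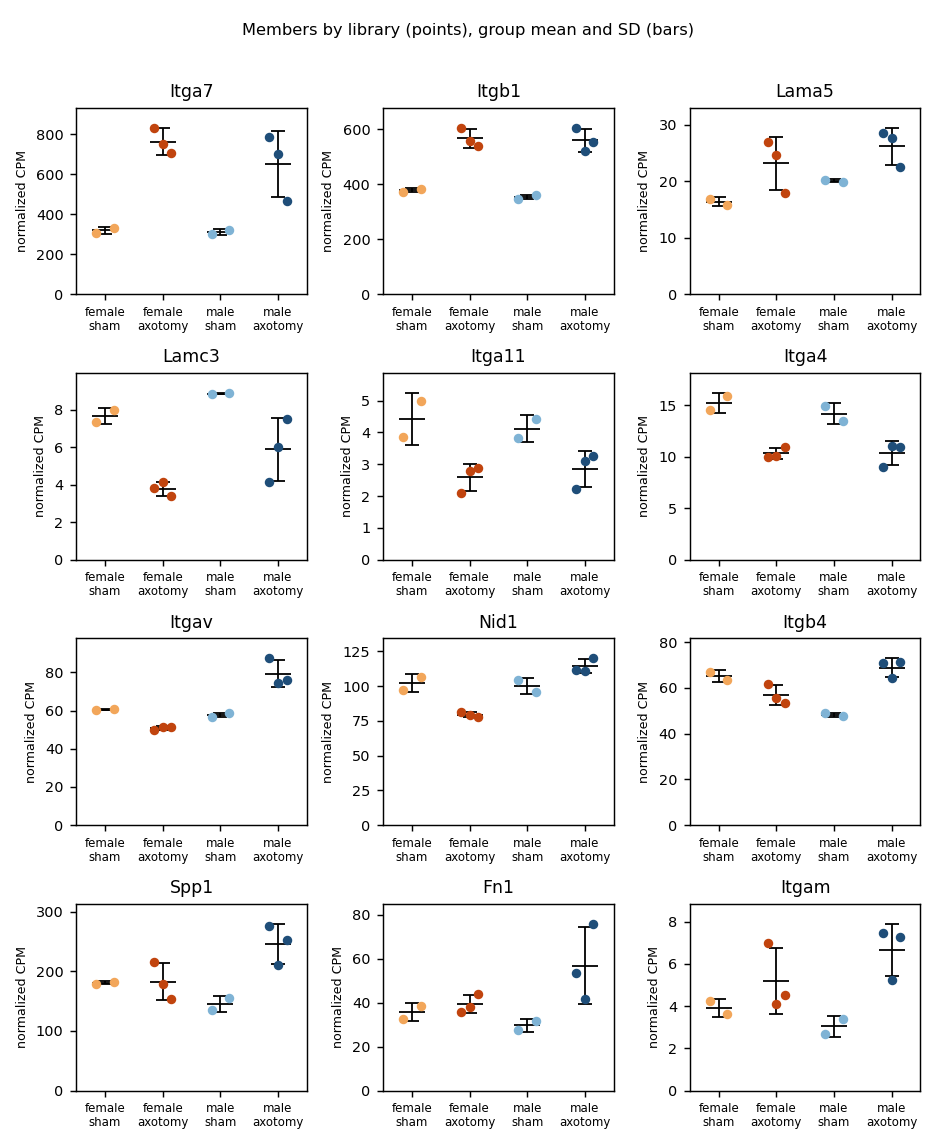
Normalized CPM of 12 members, each in its own panel with the axis from 0, 1 point a library and bars for the group mean and SD (2 sham and 3 axotomy libraries a sex). Itga7 and Itgb1 rise and Itga11 and Itga4 fall without overlap in both sexes, whereas Itgav and Nid1 fall in the female and rise in the male libraries.

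The 5 laminin alpha chains did not move together. Averaged over the sexes, Lama5 rose and Lama3 and Lama1 fell, while the sign of Lama4 depended on how its transcripts were counted. Lama5, a chain of vascular and epithelial basement membranes, read 16.9 and 15.8 CPM in the female shams, 20.3 and 19.9 in the male shams, 26.9, 24.7 and 17.9 in injured females and 28.5, 27.7 and 22.5 in injured males. Within each sex the injured libraries lay above the shams, but female axotomy 3 was below both male shams. Its log2 fold change was 0.50 (padj = 0.06503) in females and, for males, 0.38 (padj = 0.0846), and the averaged value was 0.44 ± 0.11 (SE, padj = 0.0101). Lama3, the alpha chain of epithelial anchoring laminin, read 6.08 and 6.45 CPM in the female shams, 6.61 and 7.13 in the male shams, 5.94, 5.203 and 5.27 in injured females and 3.97, 5.399 and 4.17 in injured males. All 6 injured libraries were below all 4 shams, with male axotomy 1 and 3 the lowest. The averaged change was -0.40 ± 0.10 (SE, padj = 0.0109), with -0.60 (padj = 0.00994) in males and -0.19 (padj = 0.414) in females.

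Lama1, a chain known from early embryonic and neural basement membranes, read 5.39 and 6.11 CPM in the female shams, 5.404 and 6.06 in the male shams, 4.91, 5.02 and 4.81 in injured females and 4.54, 5.11 and 4.401 in injured males. Its injured and sham libraries did not overlap, at an averaged log2 fold change of -0.26 (padj = 0.03797). Lama2, the chain of Schwann cell basement membrane, read 61.1 and 61.02 CPM in the female shams, 61.1 and 50.4 in the male shams, 42.4, 39.97 and 39.4 in injured females and 56.8, 52.02 and 81.1 in injured males. The female injured libraries were the lowest 3 of the 10, while the male groups overlapped, with male axotomy 3 the highest. Lama2 fell in females by 0.59 on the log2 scale (padj = 0.0354) and had a log2 fold change of 0.18 (padj = 0.412) in males. Lama4 read 54.1 and 46.3 CPM in the female shams, 55.7 and 50.8 in the male shams, 62.4, 47.6 and 51 in injured females and 61.9, 64.1 and 69.4 in injured males. Its male injured libraries lay above the male shams, and the female groups overlapped. The averaged change was 0.19 (padj = 0.0851). Without the correction for transcript length it was -0.028 (padj = 0.703), and counted over protein-coding transcripts -0.053 (padj = 0.464), so that no direction is given for it.

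Of the beta and gamma chains, Lamc3 fell in both sexes. Lamc3, a gamma chain of low level here, read 7.36 and 7.96 CPM in the female shams, 8.84 and 8.89 in the male shams, 3.803, 4.12 and 3.41 in injured females and 4.15, 6.03 and 7.48 in injured males. Within each sex the injured libraries were below the shams, although male axotomy 3 lay above female sham 1. It fell by 1.02 ± 0.20 (SE, padj = 0.01005) on the log2 scale in females and by 0.59 ± 0.20 (SE, padj = 0.0391) in males. Lamb1, the abundant beta chain, read 124 and 117 CPM in the female shams, 115 and 104 in the male shams, 118, 113 and 110.5 in injured females and 147, 136 and 136 in injured males. The 3 male injured libraries were the highest of the 10, and the female groups overlapped. Its log2 fold change was -0.084 (padj = 0.494) in females and, for males, 0.35 (padj = 0.00579), and 0.13 (padj = 0.0669) averaged. Counted over protein-coding transcripts, the averaged value was 0.035 (padj = 0.648).

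Lamb2, the beta chain of nerve and synaptic basement membranes, spanned 40.3 to 65.7 CPM, with log2 fold changes of -0.38 (padj = 0.0474) in females and, for males, 0.15 (padj = 0.331). Lamc1, the common gamma chain, spanned 57.8 to 107 CPM and had -0.074 (padj = 0.816) in females and, for males, 0.40 (padj = 0.0972). Its averaged change of 0.16 (padj = 0.312) turned to -0.21 (padj = 0.00827) without the length correction. Lamb3, a chain of epithelial laminin, was low and uneven, at 0.4697 to 3.07 CPM. Its log2 fold change in males was -1.58 (padj = 0.0486), against 1.31 (padj = 0.0195) over protein-coding transcripts, so its direction rests on how transcripts are counted. In all, the 11 laminin chains gave 1 rise and 3 falls in females and 4 rises and 4 falls in males, where 10.4% and 9.74% of all genes rose and fell in females and 21.8% and 20.1% in males. The male tally holds Lama4 as a rise and Lamb3 as a fall, the signs of which depended on the counting. The medians were -0.084 in females and 0.15 in males on the log2 scale.

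The nidogens, which tie laminin to collagen IV, were called higher in males than in females after axotomy by edgeR's test. The padj was 0.00763 for Nid1 and 0.0714 for Nid2, and Nid2 lost this call in 9 of 10 leave-outs. The sex difference of the response passed for neither (padj = 0.161 and 0.274). Nid1 read 97.4 and 107 CPM in the female shams, 104 and 96.1 in the male shams, 81.1, 79.6 and 77.95 in injured females and 111, 111 and 120.0 in injured males. The 3 female injured libraries were the lowest of the 10 and the 3 male injured libraries the highest. Axotomy against sham gave a log2 fold change of -0.36 ± 0.071 (SE, padj = 0.0106) in females, with 0.19 ± 0.071 (SE, padj = 0.06302) for males. Nid2 read 24.9 and 24.3 CPM in the female shams, 23.4 and 24.6 in the male shams, 22.6, 25.1 and 23.7 in injured females and 30.6, 29.7 and 29.2 in injured males. The 3 male injured libraries were the highest of the 10, and the female groups overlapped. Its log2 fold change was -0.046 (padj = 0.732) in females and, for males, 0.31 (padj = 0.00956), and 0.13 (padj = 0.0673) averaged, the latter 0.048 (padj = 0.535) over protein-coding transcripts.

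All 6 adhesive glycoproteins had a positive log2 fold change in males, and 5 of 6 passed, with a median of 0.82. In females 1 of 6 fell, and the median was -0.014. Of all genes, 21.8% rose in males and 9.74% fell in females. Spp1 (osteopontin), a secreted RGD ligand, read 179 and 182 CPM in the female shams, 135 and 155 in the male shams, 215, 178 and 154 in injured females and 276, 210.2 and 253 in injured males. The male injured libraries lay above the male shams, whereas the female groups overlapped and the female shams lay above the male ones. The fitted log2 fold change was 0.76 ± 0.14 (SE, padj = 0.003501) in males and 0.015 (padj = 0.959) in females. Vtn (vitronectin), a plasma and matrix ligand of alphav integrins, read 18.6 and 15.96 CPM in the female shams, 14.8 and 16.1 in the male shams, 17.5, 27 and 19.3 in injured females and 31.4, 22.3 and 31.5 in injured males. Here too the male groups did not overlap and the female groups did. In males, all axotomy libraries lay above the shams in 29.3% of all genes. This was a log2 fold change of 0.88 ± 0.20 (SE, padj = 0.00735) in males, 0.29 (padj = 0.347) in females and 0.59 (padj = 0.00698) averaged. Fn1 (fibronectin), the main ligand of alpha5, read 32.8 and 38.7 CPM in the female shams, 27.6 and 31.8 in the male shams, 35.95, 38.2 and 43.8 in injured females and 53.3, 41.5 and 75.9 in injured males. Male axotomy 3 was the highest, and male axotomy 2 was within the female range. On the log2 scale the change was 0.94 ± 0.21 (SE, padj = 0.00783) in males and 0.14 (padj = 0.706) in females. Over protein-coding transcripts Fn1 had 0.40 (padj = 0.569) in males, -0.93 (padj = 0.245) in females and -0.26 (padj = 0.576) averaged against 0.54 (padj = 0.0152) over all transcripts.

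Thbs2, a matricellular thrombospondin, read 10.6 and 11.1 CPM in the female shams, 8.62 and 10.3 in the male shams, 11.1, 10.4 and 9.93 in injured females and 13.6, 12.5 and 14.8 in injured males. The male injured libraries were the highest of the 10, and the female groups overlapped. Axotomy against sham gave a log2 fold change of -0.043 (padj = 0.838) in females and, for males, 0.52 (padj = 0.00617). Thbs1, its platelet and injury counterpart, spanned 9.705 to 24.8 CPM and had -0.24 (padj = 0.486) in females and, for males, 0.89 (padj = 0.0114). Tnc (tenascin-C), a ligand of alpha9, was at 1.75 to 3.92 CPM with -0.65 (padj = 0.0846) in females and, for males, 0.18 (padj = 0.575). For Spp1, Vtn, Fn1, Thbs1 and Thbs2, male axotomy 2 was the lowest of the injured males, whereas for Tnc male axotomy 3 was. Male axotomy 2 was also the lowest for members of other roles, such as Itgb1, Itgav and Itgb4, but not for Itga7. It was the lowest in fibroblast and meningeal marker RNA as well, and whether these go together was not tested. Male axotomy 3 and 1 had fibroblast sums of 1945 and 1538 CPM and meningeal sums of 811 and 631 CPM, against 1024 and 351 CPM in male axotomy 2. With the mean of these markers as a covariate, Spp1 had 0.48 (padj = 0.402), Vtn 0.28 (padj = 0.695) and Fn1 0.011 (padj = 0.985) in males. Other members lost their male call with a change about as large or larger, such as Itgb1 at 0.56 (padj = 0.11), Itga2 at 0.73 (padj = 0.247), Itgae at 0.94 (padj = 0.275) and Itga11 at -0.54 (padj = 0.548).

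**Figure D4:**
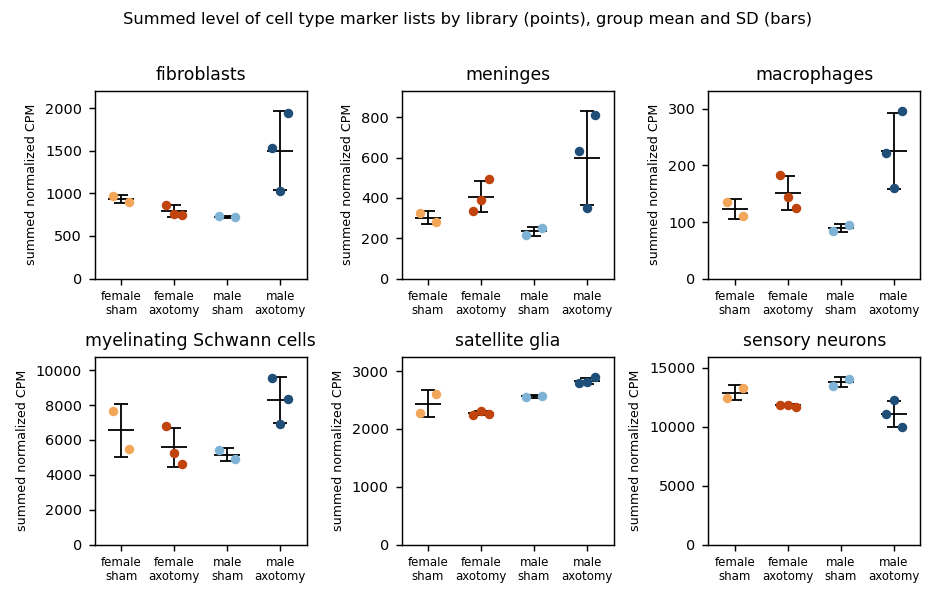
Summed normalized CPM of 6 lists of cell type markers, 1 point a library, with bars for the group mean and SD (2 sham and 3 axotomy libraries a sex). Fibroblast, meningeal, macrophage and myelinating Schwann cell sums are higher in the male axotomy than in the male sham libraries, and sensory neuron sums are lower.

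Of the 4 collagen-binding alpha subunits, Itga11 fell in both sexes. Itga11, a receptor of fibroblasts for fibrillar collagen, read 3.85 and 5 CPM in the female shams, 3.82 and 4.42 in the male shams, 2.11, 2.78 and 2.88 in injured females and 2.21, 3.09 and 3.26 in injured males. The injured libraries all lay below the shams, and the ranges of the injured females and males overlapped. The fitted log2 fold change was -0.77 ± 0.21 (SE, padj = 0.0355) in females, with -0.53 ± 0.21 (SE, padj = 0.0714) for males. Itga2, known from platelets and epithelia, read 8.54 and 6.01 CPM in the female shams, 6.63 and 5.37 in the male shams, 7.56, 7.61 and 7.82 in injured females and 9.31, 9.41 and 8.47 in injured males. The male injured libraries were above the male shams, and female sham 1 lay among the injured. It rose by 0.59 on the log2 scale in males (padj = 0.0135) and by 0.33 averaged (padj = 0.0303). Itga1, a collagen receptor of glia and vessel walls, read 16.1 and 16.5 CPM in the female shams, 14.8 and 15.3 in the male shams, 15.99, 17.9 and 15.5 in injured females and 18.2, 18.9 and 22.2 in injured males. Its male groups did not overlap and its female groups did, at an averaged log2 fold change of 0.20 (padj = 0.0473). Itga10, of cartilage, spanned 2.08 to 3.83 CPM and did not pass.

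Of the 8 RGD-binding and related subunits, 2 fell in females and 4 rose in males, where 9.74% of all genes fell in females and 21.8% rose in males. Itgav, the alpha subunit of the vitronectin receptors, read 60.1 and 60.7 CPM in the female shams, 56.9 and 58.5 in the male shams, 49.8, 51.6 and 51.2 in injured females and 87.3, 74.4 and 75.9 in injured males. The 3 female injured libraries were the lowest of the 10 and the 3 male injured libraries the highest. This was a log2 fold change of -0.25 ± 0.076 (SE, padj = 0.0553) in females, with 0.46 ± 0.077 (SE, padj = 0.00211) for males. Its beta partners did not follow 1 pattern. Itgb3 read 21.5 and 23.9 CPM in the female shams, 25.1 and 23.9 in the male shams, 16.9, 18.7 and 17.5 in injured females and 21.3, 26.05 and 22.96 in injured males. The female injured libraries were the lowest of the 10, and the male groups overlapped. It fell by 0.36 on the log2 scale in females (padj = 0.0367) and had -0.063 (padj = 0.659) in males, with -0.21 (padj = 0.0321) averaged. Itgb5 read 26.6 and 29.9 CPM in the female shams, 25.3 and 25.1 in the male shams, 30.4, 28 and 24.8 in injured females and 34.6, 30.2 and 32.4 in injured males. The male injured libraries exceeded the male shams and overlapped the female ones, for -0.028 (padj = 0.888) in females and, for males, 0.36 (padj = 0.0198).

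Itgb8, a beta subunit that frees latent TGF-beta, read 108 and 122 CPM in the female shams, 134 and 127 in the male shams, 118, 131 and 132 in injured females and 163, 142 and 175 in injured males. The male injured libraries were the highest, and those of females overlapped their shams. Its averaged log2 fold change was 0.22 (padj = 0.0297). Itgb6, the epithelial activator of TGF-beta, read 3.04 and 2.53 CPM in the female shams, 2.19 and 2.88 in the male shams, 1.94, 2.18 and 2.08 in injured females and 1.13, 2.36 and 1.61 in injured males. The female injured libraries were below the female shams and male axotomy 2 lay between the male shams, at an averaged -0.50 (padj = 0.05602). Itga5, the fibronectin receptor subunit, spanned 3.74 to 8.14 CPM with -0.17 (padj = 0.6801) in females and, for males, 0.70 (padj = 0.0397). Itga8, a receptor subunit of mesenchymal cells, was low, at 0.559 to 1.38 CPM, and its injured libraries lay above the shams in females and below them in males, at 0.38 (padj = 0.311) in females and, for males, -0.40 (padj = 0.201), with neither change passing. In female axotomy 3 Itga8 had 48 estimated counts, against 74 in each female sham, and an effective length of 2641 bases against 5185 and 5210. Its place above the female shams in that library rests on the length correction. Itga2b, of platelets, spanned 4.07 to 7.56 CPM and passed in neither sex.

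Itga4 and Itga9 pair with beta1, and both fell averaged over the sexes while Itgb1 rose. Itga4, a receptor subunit for VCAM-1 and fibronectin, read 14.6 and 15.9 CPM in the female shams, 14.9 and 13.5 in the male shams, 10.02, 10.03 and 10.9 in injured females and 9.01, 11.1 and 10.96 in injured males. All 6 injured libraries were below all 4 shams, as were those of Itga11, Lama3 and Lama1 and of 14.8% of all genes. On the log2 scale the change was -0.56 ± 0.11 (SE, padj = 0.0107) in females, with -0.45 ± 0.11 (SE, padj = 0.0106) for males, and its averaged call held under all 18 alternatives tried. Itga9, a receptor subunit for tenascin-C and osteopontin, read 7.25 and 9.59 CPM in the female shams, 7.87 and 7.77 in the male shams, 5.88, 5.85 and 5.83 in injured females and 6.34, 8.41 and 7.63 in injured males. The 3 female injured values were the lowest of the 10, and the male injured values lay on both sides of the male shams. It fell by 0.52 on the log2 scale in females (padj = 0.0408), had -0.068 (padj = 0.756) in males and -0.30 (padj = 0.0423) averaged.

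Of the 6 tested leukocyte subunits, 4 rose in males, where 21.8% of all genes rose, and the medians were 0.93 in males and 0.14 in females. Itgam (CD11b), the alpha subunit of the myeloid complement receptor, read 4.22 and 3.62 CPM in the female shams, 2.69 and 3.405 in the male shams, 6.99, 4.12 and 4.501 in injured females and 7.48, 5.25 and 7.27 in injured males. The male injured libraries exceeded the male shams, and female axotomy 1 stood above the other females. Axotomy against sham gave a log2 fold change of 1.13 ± 0.25 (SE, padj = 0.00639) in males and 0.41 (padj = 0.289) in females. Itgb2 (CD18), its beta partner, read 3.54 and 2.24 CPM in the female shams, 1.84 and 2.396 in the male shams, 4.94, 2.58 and 2.86 in injured females and 4.02, 3.42 and 5.43 in injured males. The pattern was that of Itgam, with female axotomy 1 high, for 0.26 (padj = 0.6298) in females and, for males, 1.01 (padj = 0.0325). Itgal (CD11a), the lymphocyte partner of beta2, read 1.496 and 1.13 CPM in the female shams, 0.819 and 0.878 in the male shams, 1.67, 1.18 and 2.23 in injured females and 1.37, 0.9404 and 1.77 in injured males. Its injured libraries overlapped the female shams, at an averaged 0.52 (padj = 0.0893). Itgae (CD103), of resident T cells, read 0.875 and 0.937 CPM in the female shams, 0.765 and 0.528 in the male shams, 0.9, 0.815 and 0.914 in injured females and 1.14, 1.19 and 1.17 in injured males. The 3 male injured values were the highest, close to each other, for -0.047 (padj = 0.9104) in females and, for males, 0.84 (padj = 0.0125). Itgax (CD11c), of dendritic cells and macrophages, spanned 0.31 to 1.69 CPM and had -0.67 (padj = 0.434) in females and, for males, 1.37 (padj = 0.0797), and Itgb7, the partner of Itgae, spanned 1.23 to 4.65 CPM and passed in neither sex. The highest Itgb7 value was in male axotomy 2. There the retained-intron transcript Itgb7-204 (449 bases) held 61.1% of the gene's TPM, against 0% to 12.5% in the other libraries. The summed macrophage markers were 84.4 to 135 CPM in sham, 124 to 184 CPM in female axotomy, highest in female axotomy 1, and 161 to 296 CPM in male axotomy libraries, with none of the 12 at 0 in any library. The summed genes of neutrophils and monocytes were 114.6 CPM in female axotomy 1, against 29.1 to 48.2 CPM in the other female and the sham libraries and 46.7 to 76.3 CPM in male axotomy. Blood cell genes moved too, with erythrocyte sums of 786 and 882 CPM in male sham and 1511 to 5198 CPM in male axotomy, where 5 of 5 rose, as did 5 of 6 tested platelet and 5 of 6 mast cell markers. Their part in the result was not tested.

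Males and females were also compared directly after axotomy, the contrast that asks whether the injured ganglia differ by sex. Of 44 members, 6 were higher in males (1.16% of all genes) and 0 in females (0.355% of all genes), and 24 of 44 had an unadjusted p under 0.05. In sham 0 of 44 differed (0.0432% of all genes), with 3 at an unadjusted p under 0.05 and 1 called by DESeq2. The counts at an unadjusted p and by DESeq2 stand without a share of all genes and are not read as a result about the members. With the lowest padj were Itgav, higher in males by 0.64 ± 0.068 (SE, padj = 0.00283) on the log2 scale, and Nid1, higher by 0.52 ± 0.064 (SE, padj = 0.00763). Lama2 differed by 0.64 (padj = 0.0893), Itgb3 by 0.41 (padj = 0.0819), Nid2 by 0.32 (padj = 0.0714) and Lamb1 by 0.29 (padj = 0.0895). Itgav and Nid1 held with each library left out in turn. Lama2, Lamb1 and Nid2 each lost their call in 9 of the 10 leave-outs and Itgb3 in 8, at log2 differences of 0.25 to 0.71, while without male axotomy 2 the count was 23. That count too has no share of all genes beside it. With the fibroblast and meningeal markers as a covariate 0 of the 6 passed and all 6 kept their sign. The marker mean was higher in every injured male than in every injured female library, so the covariate overlapped with sex there.

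The test of the sex difference in the response itself, males minus females, came nearest to the threshold for Itgav, at 0.71 ± 0.11 (SE, padj = 0.102), Itgb4, at 0.71 ± 0.11 (SE, padj = 0.102), and Nid1, at 0.55 ± 0.10 (SE, padj = 0.161). For these 3 and Itga8, all injured libraries lay on opposite sides of their shams in the 2 sexes, 4 of 44 members against 2.45% of all genes. For Itga8 the female side rests on the length correction in female axotomy 3. Without male axotomy 2, 16 members passed, among them Itgav, Itgb4, Nid1, Spp1, Lama2 and Fn1. The share of all genes that passed without this library is not given here, so the 16 are not read as particular to the family. Without male axotomy 3, Itgav alone passed, and without any other library 0 passed.

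Transcript shares add a limit to several laminins. Of 19 members with at least 2 transcripts above 10% of the gene's TPM, 6 had a main transcript whose shares in the 4 sham and 6 injured libraries did not overlap, against 12.9% of 8200 genes. These were Lama3, Lama4, Lamb1, Lamb3, Lamc1 and Itga2b. For Lama4, the protein-coding transcript Lama4-201 held 82.1% to 96.1% in sham and 59.5% to 77.9% in injured libraries, and Lama4-207, a retained-intron fragment of 511 bases, rose from 3.8% to 17.9% up to 21.5% to 40.3%. For Lamb1, the retained-intron transcript Lamb1-207 (424 bases) held 8.0% to 11.8% in sham and 12.3% to 19.2% in injured libraries. Lamc1-201, the full-length transcript of 7622 bases, held 94.4% to 99.1% in sham and 54.0% to 93.6% after axotomy. The shorter Lamc1-204 (1447 bases) was at 0% in all 4 shams and in female axotomy 3 and male axotomy 2, and at 29.5% to 39.7% in the other 4 injured libraries.

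Lamb3-201, a protein-coding transcript of 4056 bases, was at 0% to 0.826% in sham and 11.2% to 62.6% in injured libraries, while the short non-coding Lamb3-207 (355 bases) spanned 0% to 85.1% in sham. For Lama3 the shorter Lama3-202 (5551 bases) held 48.8% to 70.4% in sham and 71.2% to 77.3% after axotomy, and Lama3-201 (10548 bases) held the remainder. Itga2b-207, a non-coding fragment of 623 bases, held 43.3% to 51.6% in sham and 27.1% to 38.9% after axotomy. Fn1 had no separated transcript, but its retained-intron transcript Fn1-202 held 29.6% to 52.9% of the gene's TPM over the 10 libraries. These shares are estimates from short reads shared between overlapping transcripts, and no test was run on them.

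**Figure D5:**
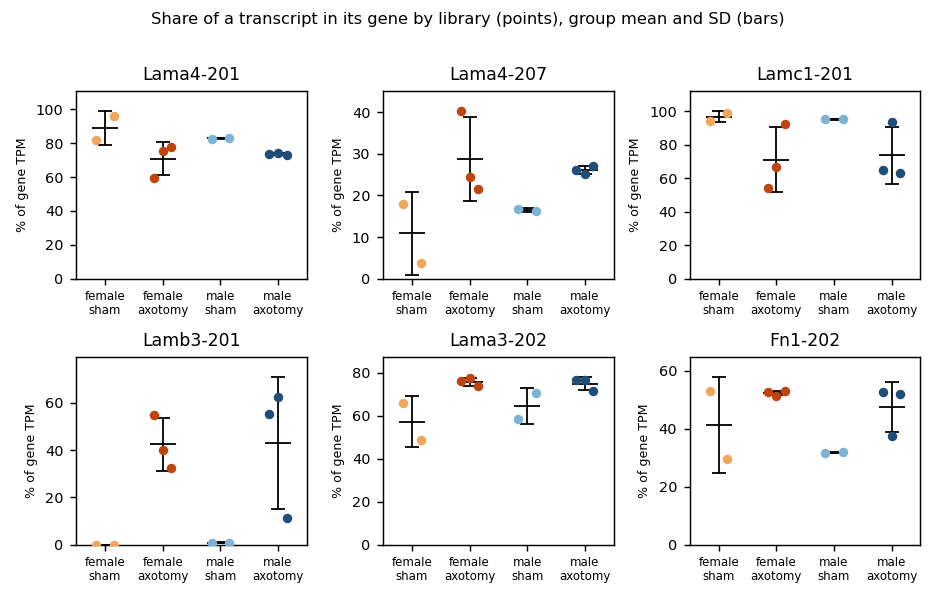
Share of a transcript in its gene's TPM (%), 1 point a library, with bars for the group mean and SD (2 sham and 3 axotomy libraries a sex). Lama4-201 and Lamc1-201 are lower and Lama4-207, Lamb3-201 and Lama3-202 higher in all 6 axotomy than in all 4 sham libraries, and Fn1-202 overlaps.

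Genes that work with this family were counted from 4 lists, beside 23.9% of all genes that rose and 22.6% that fell averaged over the sexes, and no list is called apart from that background. Of 24 integrin adaptors and signalling genes, 5 rose and 7 fell averaged over the sexes. Ptk2, focal adhesion kinase, had 0.51 (padj = 0.0117) in females and, for males, 0.54 (padj = 0.00349), and Fermt3, the kindlin of blood cells, 0.17 (padj = 0.597) in females and, for males, 1.001 (padj = 0.00407). At the other end, the talin Tln2 had -0.66 (padj = 0.0231) in females and, for males, -0.88 (padj = 0.00277) and the tensin Tns1 -0.60 (padj = 0.04401) in females and, for males, -0.83 (padj = 0.00502). Of 16 other receptors and basement membrane partners, 4 rose and 2 fell. Sdc1, a syndecan, read 40.4 and 37.3 CPM in the female shams, 34.2 and 44.3 in the male shams, 130.2, 106 and 109 in injured females and 97.7, 68.8 and 58.3 in injured males. Injured and sham libraries did not overlap, and each injured female library was higher than each injured male library. The fitted log2 fold change was 1.57 (padj = 0.00166) in females and, for males, 0.93 (padj = 0.00606). After axotomy, males minus females was -0.62 for Sdc1 and did not pass (padj = 0.139). Nor did the sex difference of its response, at -0.64 (padj = 0.419). Cd44, a receptor for hyaluronan and osteopontin, had 0.66 (padj = 0.01403) in females and, for males, 0.62 (padj = 0.00737). The collagen IV chain Col4a2 had -0.63 (padj = 0.00248) in females and, for males, 0.061 (padj = 0.646), and Cd47, a thrombospondin receptor, -0.16 (padj = 0.234) in females and, for males, -0.27 (padj = 0.0295).

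Of 17 tested among 20 other adhesive and matricellular genes, 3 rose and 4 fell averaged. Comp, a thrombospondin of cartilage and fibroblasts, read 13.1 and 15.3 CPM in the female shams, 16.3 and 17.3 in the male shams, 6.47, 6.69 and 7.48 in injured females and 7.62, 8.43 and 8.48 in injured males. The 6 injured libraries were all below the 4 shams, with -1.04 (padj = 0.0006205) in females and, for males, -1.04 (padj = 0.000369). Edil3, an RGD protein that binds alphav integrins, had -0.47 (padj = 0.00797) in females and, for males, -0.47 (padj = 0.00353). Fbln1, also 1 of the fibroblast markers, had 0.091 (padj = 0.792) in females and, for males, 0.93 (padj = 0.00482) and periostin (Postn) 0.27 (padj = 0.164) in females and, for males, 0.67 (padj = 0.00301). Of 10 tested among 11 counter-ligands on cells, 4 rose and 2 fell. Icam1, the ligand of the beta2 integrins, had 0.069 (padj = 0.879) in females and, for males, 1.08 (padj = 0.006804) and Icam2 0.30 (padj = 0.375) in females and, for males, 0.72 (padj = 0.02304), while L1cam, of axons, had -0.078 (padj = 0.739) in females and, for males, -0.42 (padj = 0.0278) and Cdh1 (E-cadherin, the ligand of alphaE) -0.18 (padj = 0.159) in females and, for males, -0.19 (padj = 0.0948).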

How the data were processed

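Whole L4 and L5 DRG were sequenced as poly-A selected, stranded, paired-end libraries. The authors used Trimmomatic 0.39 for trimming and Salmon 1.3.0 for quantification against Gencode M27, with sequence and GC bias correction, and the submitters' notes also name MultiQC 1.9 and DESeq2. The deposited files give estimated counts, TPM and effective length per transcript and library. The sources used here do not give the strand setting. No per-sample column was left unassigned, and no coordinate comes from these files.

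Transcripts were summed per gene. Estimated counts were rounded, filtered with edgeR 4.0.16 (filterByExpr, minimum count 10, R 4.3.3), scaled by TMM and corrected for effective length. Quasi-likelihood F tests with Benjamini-Hochberg adjustment over 20836 genes (threshold 0.1) were fitted on all 10 libraries, which share 1 estimate of the spread (common biological coefficient of variation 0.129). The comparisons were axotomy against sham in each sex and averaged, the difference of these responses, and males against females within each operation. Each library is a pool of 2 mice, so p-values measure the spread between pools. Depth and floors cover counting error only. The procedure was tested on simulated data. DESeq2 1.42.0 was an alternative. The members and lists were chosen with earlier results of these data known. Library values are given for members called averaged or between the sexes, and of each list the 2 called genes with the highest and the 2 with the lowest averaged change are named. Sequences are from RefSeq (GRCm38.p6), and the GC box was added to the motifs after seeing the promoters. Proteins were not used here, and 1 member, counted in the totals, is not reported here by itself.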

Additional observations from a re-analysis of the deposited data

Results flagged for a closer look

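In 4 members every axotomy library lay on 1 side of the sham libraries in females and on the other side in males. The difference in log2 fold change, males minus females, was 0.71 for Itgav, 0.71 for Itgb4, 0.55 for Nid1 and -0.78 for Itga8. By edgeR's quasi-likelihood test of that difference over all genes, padj was 0.102, 0.102, 0.161 and 0.403, so none passed. Over 18 alternatives the padj of Itgav ran from 7.27e-06 to 0.714 and passed in 8, that of Itgb4 from 4.9e-05 to 0.823 and passed in 6, and that of Nid1 from 0.000833 to 0.864 and passed in 3. Such a split without overlap occurred in 2.45% of all 20836 genes. The female side of the Itga8 split rests on the length correction, since female axotomy 3 had 48 estimated counts against 74 in each female sham.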

How the results depend on the processing

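Males against females after axotomy, 6 members were called. DESeq2 called 17, no filter on low counts 12, no length offset 10, the compared groups alone 2 and the marker covariate 0. For the sex difference of the response, with 0 called, DESeq2 gave 10, RLE size factors 2, no filter 3, the replicate block 2, TMM factors taken before the filter 2 and protein-coding transcripts only 1, the last pair chosen after seeing the data. The replicate block left every other count of called members within 1.5 times. Replicate numbers were not taken as pairs: among 13 pairs sharing a number, deviations from the group means correlated at -0.12 to 0.27, over 0.1 in 4. In sham, with 0 called, DESeq2 gave 1 and the compared groups alone 1. With the fibroblast and meningeal marker covariate 2 members were called in males, 1 of them among the 31, and 9 averaged, 6 of them among the 27, where the females kept 13 of 13 calls. The marker mean hardly differed between the female groups, so it could hardly move the female calls. With single libraries left out, the counts ran from 2 to 14 in females, 16 to 32 in males, 15 to 31 averaged, 0 to 16 for the sex difference, 2 to 23 after axotomy and stayed at 0 in sham. All these counts are of members, without the share of all genes under each setting.

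Signs turned as follows. Without the length offset, Lama4 had -0.22 (padj = 0.0684) in females and -0.028 (padj = 0.703) averaged, Lamb3 0.72 (padj = 0.0858) in males and 1.11 (padj = 0.00198) averaged, and Lamc1 -0.21 (padj = 0.00827) averaged. Over protein-coding transcripts, Lama4 had -0.24 (padj = 0.0635) in females and -0.053 (padj = 0.464) averaged, Lamb3 1.31 (padj = 0.0195) in males and 1.63 (padj = 0.000937) averaged, and Fn1 -0.26 (padj = 0.576) averaged. With the covariate, Itga5 had -0.22 (padj = 0.77), Itgax -0.26 (padj = 0.907) and Itgb8 -0.029 (padj = 0.941) in males, and Itgal -0.026 (padj = 0.962) averaged. The cause was not tested. Of the called members, Itga7, Itgb1, Lama5, Lamc3, Itga11 and Itga4 kept their averaged call under all 18 alternatives, Itga7 and Itgb1 their female call and Itga7 its male call under all 19. With a transcript minimum of 5% in place of 10%, 7 of 23 members had a separated transcript, where 13.9% of genes did. Depth limits Itgad, at 1 to 6.99 estimated counts per library.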
